A study of Mus musculus with 12 samples.

Results

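The genes described here encode the T cell antigen receptor complex and the proteins that act first when it is engaged. They were chosen by name, and all 10 had values among the 556 genes measured. They fall by role into the receptor chains (Cd3d, Cd3e and Cd247), the proximal kinases and adaptor (Lck, Zap70 and Lcp2) and the coreceptor and surface modulators (Cd4, Cd2, Cd5 and Cd6). Terminal ileum RNA was counted on the mouse immunology panel of NanoString's nCounter, which hybridizes a colour-coded reporter probe to each transcript and counts the codes without sequencing. There were 12 male C57BL/6 mice at week 7, 3 in each of 4 groups. SPF control mice carried a specific pathogen-free microbiota and received no antibiotic, and SPF PAT mice carried such a microbiota and received tylosin, a macrolide, as a single early-life course given through their mothers' milk (pulsed antibiotic treatment, PAT). GF control and GF PAT mice were germ-free, without and with the same tylosin course. The mice were not otherwise modified. Treatment was assigned by litter, and the labels give no litter, cage or assay batch for these mice, so that a group and a litter effect cannot be told apart.

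The receptor has no enzyme of its own. Its CD3 chains and the zeta chain carry tyrosine motifs that Lck, held at the CD4 or CD8 coreceptor, phosphorylates. ZAP-70 docks on these motifs and in turn phosphorylates adaptors, of which SLP-76, the product of Lcp2, assembles the next signalling complex. CD2 is an adhesion receptor, and CD5 and CD6 are related scavenger-receptor proteins that tune the signal. In the ileum such cells lie among the epithelial cells, in the lamina propria and in lymphoid follicles, where B cells are plentiful.

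Several of the promoters held a common motif. Of the 10 genes, 7 had windows in the set of RefSeq promoters used here (GRCm38.p6), each holding 250 bases before and 50 after a start site. Cd2, Cd4 and Cd6 had no entry in that set, so their promoters were not searched. The ETS core AGGAAGT, searched on both strands, lay in a window of 5 of these 7 genes and in 6 of their 10 windows, against 9.35% of all 32851 windows. These stretches of 30 bases around the matches upstream of the start are shown because each receptor chain, Lck and Cd5 held one, with the match in capitals. They are written 5′ to 3′ on the gene's strand, on which the match reads AGGAAGT or, in reverse complement, ACTTCCT.
Cd3d, chr9:44981576-44981605, plus strand: aattcccttacACTTCCTagaattctgaac
Cd3e, chr9:45009611-45009640, minus strand: gtcccctctacACTTCCTgtgtggggttca
Cd247, chr1:165788612-165788641, plus strand: aaaccttcagaACTTCCTgcctatgaatcg
Lck, upstream start, chr4:129573633-129573662, minus strand: cctcaggagacAGGAAGTcagggtggaacg
Lck, downstream start, chr4:129558468-129558497, minus strand: gctggggcggcAGGAAGTgggtaactagac
Cd5, chr19:10739008-10739037, minus strand: gtttcacagggAGGAAGTtgacagttcaac
The match began at -199 in Cd3d, -18 in Cd3e, -58 in Cd247, -10 and -114 at the Lck starts and -52 in Cd5, counted in bases from the start site. The Cd247 window held a further match past its start. None of the letters was found in the windows of Zap70 and Lcp2. The E-box CAGGTG, on both strands, was in 8 of the 10 windows and in 20.2% of all windows, and the RUNX core TGTGGT, on both strands, in 2 of the 10 and in 16.8% of all. No match shown above overlaps one of these other motifs. A match describes the sequence and is not evidence of binding.

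All values below are log2 normalized counts, and a difference of 1 is a doubling of the level. Total counts were 806043 to 923395 in SPF control mice and 600308 to 681370 in the other 9 mice. Epithelial transcripts, Pigr and Itln1 among them, were abundant in every mouse, with a log2 summed level of the 3 measured genes of that list of 16.2 to 17.3. The B cell marker list (9 of 9 genes measured, none at 0 in any mouse) varied widely between mice of 1 group. Its mean log2 level was 8.67, 8.89 and 5.79 in SPF control mice 2, 7 and 8, and 8.64, 4.87 and 4.50 in SPF PAT mice 21, 26 and 27. It was 8.05, 5.85 and 4.75 in GF control mice 37, 38 and 39, and 8.74, 8.01 and 7.11 in GF PAT mice 41, 42 and 43. SPF control mouse 8 thus stood below its group, and SPF PAT mouse 21 and GF control mouse 37 stood above theirs.

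The receptor chains were highest in SPF control mice. Mice within a group are listed in rising order. Cd3d, the delta chain of CD3, was 7.86, 8.23 and 8.40 in SPF control mice, 6.20, 6.58 and 7.58 in SPF PAT mice, 5.58, 6.02 and 7.09 in GF control mice and 6.62, 6.98 and 7.44 in GF PAT mice. Cd3e, the epsilon chain, was 7.48, 7.92 and 8.12 in SPF control mice, 5.82, 6.24 and 7.27 in SPF PAT mice, 5.59, 5.70 and 6.65 in GF control mice and 6.01, 6.48 and 6.90 in GF PAT mice. Cd247, the zeta chain, was 6.21, 6.58 and 6.73 in SPF control mice, 4.66, 4.70 and 6.20 in SPF PAT mice, 3.97, 4.32 and 5.15 in GF control mice and 5.12, 5.31 and 5.73 in GF PAT mice. For each chain every SPF control mouse lay above every other mouse, though for Cd247 SPF control mouse 8 at 6.21 was next to SPF PAT mouse 21 at 6.20. The SPF PAT, GF control and GF PAT mice overlapped one another.

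**Figure D1:**
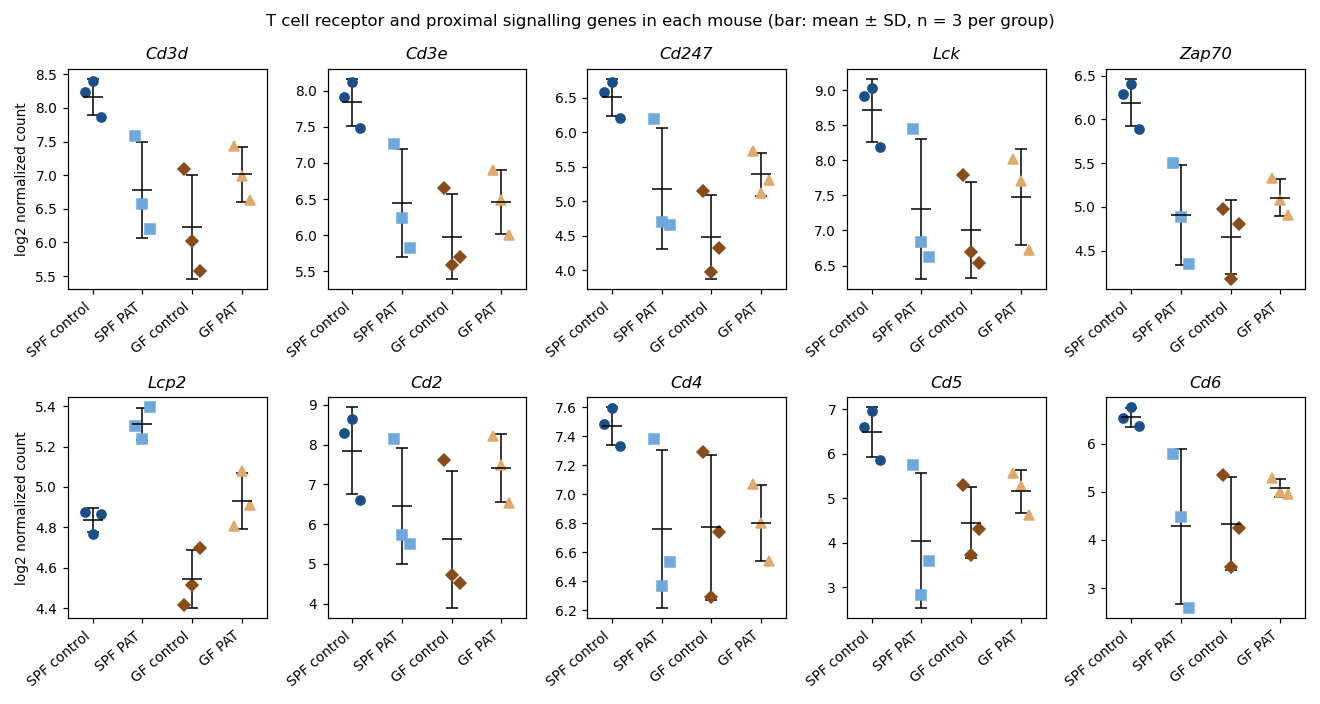
Log2 normalized count of each of the 10 genes (y axis, its own scale in each panel) in the 12 mice, by group, with the mean and SD of 3 mice as a bar. SPF control mice lie above all other mice for the 3 receptor chains, Zap70, Cd5 and Cd6, and Lcp2 is highest in SPF PAT mice.

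The kinases followed a like order and the adaptor did not. Lck, the kinase bound to the coreceptor, was 8.19, 8.91 and 9.02 in SPF control mice, 6.62, 6.84 and 8.44 in SPF PAT mice, 6.54, 6.69 and 7.78 in GF control mice and 6.72, 7.70 and 8.02 in GF PAT mice. Zap70 was 5.88, 6.29 and 6.41 in SPF control mice, 4.35, 4.88 and 5.50 in SPF PAT mice, 4.18, 4.80 and 4.98 in GF control mice and 4.91, 5.08 and 5.32 in GF PAT mice. Lcp2 was 4.77, 4.86 and 4.88 in SPF control mice, 5.24, 5.30 and 5.39 in SPF PAT mice, 4.42, 4.52 and 4.70 in GF control mice and 4.81, 4.91 and 5.08 in GF PAT mice. For Zap70 the SPF control mice stood clear of the rest, whereas for Lck SPF PAT mouse 21 exceeded SPF control mouse 8. The Lcp2 values of SPF PAT mice were above those of all other mice, and Lcp2 had the smallest spread within groups (pooled SD 0.111, against 0.395 to 1.32 for the other members). Its probe counts were only 19 to 42, and so small a spread does not reflect their counting error.

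Of the 10 genes, Cd2, Cd5 and Cd6 showed the widest spread between mice (pooled SD within groups 1.32, 0.933 and 0.947). Cd4 did not (0.397). Cd4, the coreceptor of helper T cells, was 7.33, 7.48 and 7.59 in SPF control mice, 6.37, 6.53 and 7.38 in SPF PAT mice, 6.29, 6.74 and 7.29 in GF control mice and 6.54, 6.80 and 7.07 in GF PAT mice. Cd2 was 6.61, 8.29 and 8.64 in SPF control mice, 5.51, 5.73 and 8.14 in SPF PAT mice, 4.52, 4.73 and 7.61 in GF control mice and 6.53, 7.50 and 8.21 in GF PAT mice. Its values overlapped between all groups. Cd5 was 5.86, 6.60 and 6.96 in SPF control mice, 2.82, 3.59 and 5.74 in SPF PAT mice, 3.73, 4.32 and 5.31 in GF control mice and 4.62, 5.28 and 5.57 in GF PAT mice. Cd6 was 6.36, 6.53 and 6.76 in SPF control mice, 2.59, 4.49 and 5.79 in SPF PAT mice, 3.44, 4.24 and 5.35 in GF control mice and 4.96, 4.99 and 5.29 in GF PAT mice. The lowest of these rested on few probe counts, 6 for Cd5 in SPF PAT mouse 26 (95% exact Poisson interval 2.20 to 13.1) and 5 for Cd6 in SPF PAT mouse 27 (1.62 to 11.7). Such intervals cover counting error only. In each group the mouse with the highest B cell marker mean (7, 21, 37 and 41) was also the highest of its group for 9 of the 10 members, all but Lcp2.

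The first comparison set mice with a microbiota beside mice without one, in the absence of antibiotic. By the paper's methods, the SPF litters came from breeders bought from a supplier, while germ-free mice were bred at the authors' institution. Mouse source and microbiota therefore cannot be told apart in any comparison of SPF with GF mice. In SPF control against GF control mice 7 of the 10 genes rose, each of the 3 chains, both kinases, Cd5 and Cd6, against 19.4% of all genes called higher (limma, adjusted p under 0.05). Cd247 was higher by 2.03 ± 0.43 (SE, n = 3 per group), or 4.08-fold, with an adjusted p of 0.00505. Cd3d was 3.82-fold and Cd3e 3.63-fold higher, with adjusted p of 0.00656 and 0.00595. Zap70 was higher by 1.54 ± 0.30 (adjusted p = 0.00355) and Lck by 1.70 ± 0.55 (adjusted p = 0.0302). Cd5 was higher by 2.03 ± 0.70 and Cd6 by 2.21 ± 0.71, with adjusted p of 0.0399 and 0.0302. The differences of Cd2 (2.23 ± 0.99, adjusted p = 0.0936), Cd4 (0.70 ± 0.31, adjusted p = 0.0916) and Lcp2 (0.29 ± 0.12, adjusted p = 0.0685) did not pass. The median difference of the 10 genes was 1.90, against 0.08 over all genes, and 9 of the 10 had no overlap between these groups, against 25.4% of all genes higher without overlap. The exception was Cd2.

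The chains and Zap70 passed in all 12 fits that left out a mouse, while only 4 members passed without SPF control mouse 2, without SPF control mouse 7 or without GF control mouse 38, and 5 without GF control mouse 39. Under the methods' Tukey HSD 2 members passed with Benjamini-Hochberg adjustment, Cd247 and Zap70, and none with Benjamini-Yekutieli adjustment.

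In bulk RNA, fewer T cells and less RNA per cell cannot be told apart. CD2 in mice is also carried by B cells, CD5 by some B cells, and CD247, LCK and ZAP-70 by natural killer cells. Of 9 B cell markers 1 rose (Blnk, by 0.42, adjusted p = 0.0397), with a log2 summed level of 10.4 to 12.8 in SPF control and 9.85 to 11.9 in GF control mice. Of 7 natural killer cell markers measured among 10 listed, 3 rose, among them Klrd1 by 1.33 (adjusted p = 0.00251) and Klrb1 by 1.12 (adjusted p = 0.0243), with a summed level of 8.19 to 8.37 against 7.23 to 7.54. The part of natural killer cells in the result was not tested. With the B cell marker mean as a covariate, an alternative chosen after seeing the data, 9 of the 10 genes passed, all but Cd4, and the median difference was 1.27. The covariate comes from the same RNA, and its markers had a median difference of 1.70 in this comparison. The fit therefore cannot separate B cells from the group difference, and the part of B cells in the result was not tested.

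**Figure D2:**
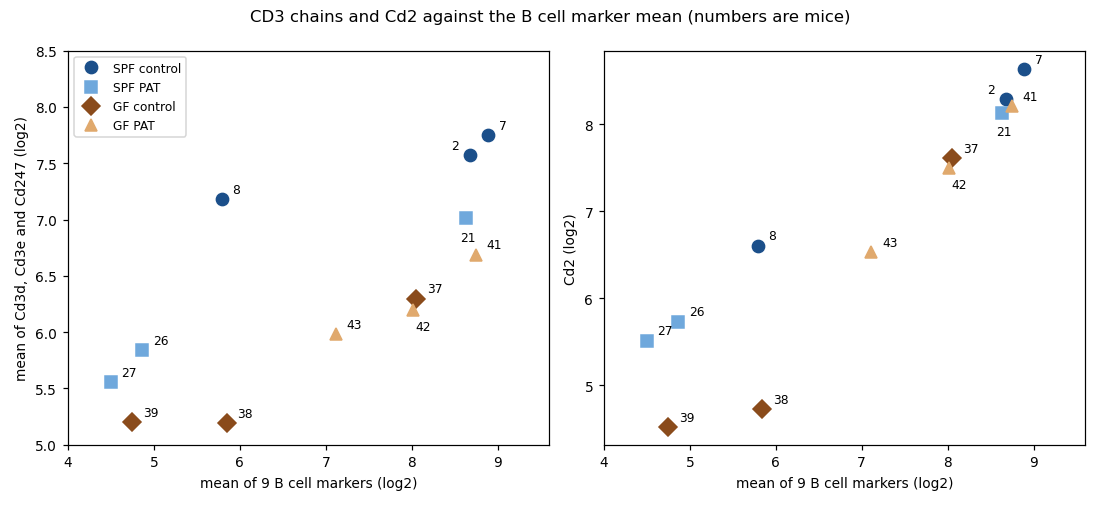
Mean log2 level of the 3 receptor chains (left) and log2 level of Cd2 (right) against the mean log2 level of 9 B cell markers in each mouse, with mouse numbers. SPF control mice lie above all other mice for the chains, in each group the mouse with the highest B cell marker mean has the highest chain mean, and Cd2 runs from 4.52 in GF control mouse 39 to 8.64 in SPF control mouse 7.

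The second comparison asked what the early tylosin course changed in colonized mice. It shares the SPF control mice with the first, so the pair are not independent. In SPF PAT against SPF control mice 6 of the 10 genes fell, against 12.2% of all genes called lower, and 1 rose, against 14.0% called higher. The genes that fell were the 3 chains, Zap70, Cd5 and Cd6. Cd3e fell by 1.40 ± 0.42 (SE, n = 3 per group, adjusted p = 0.0358), Cd3d by 1.38 ± 0.44 (adjusted p = 0.0440) and Cd247 by 1.32 ± 0.43 (adjusted p = 0.0479). Zap70 fell by 1.28 ± 0.30 (adjusted p = 0.0156). Cd5 fell by 2.43 ± 0.70 (adjusted p = 0.0318), and Cd6 fell by 2.26 ± 0.71 (adjusted p = 0.0425). The same 6 genes were the members without overlap between the groups in the lower direction, against 18.2% of all genes. The differences of Lck (-1.41 ± 0.55, adjusted p = 0.0820), Cd2 (-1.39 ± 0.99, adjusted p = 0.300) and Cd4 (-0.71 ± 0.31, adjusted p = 0.110) did not pass. The median difference of the 10 genes was -1.38, against -0.02 over all genes.

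These calls were close to the threshold and rested on single mice. No member passed without SPF control mouse 2, SPF control mouse 7 or SPF PAT mouse 27. Without SPF PAT mouse 26 the count was 2, and without SPF control mouse 8, GF PAT mouse 41, 42 or 43 it was 4, 4, 3 and 4. Without SPF PAT mouse 21, whose values were the highest of its group for all members but Lcp2, it was 9. In this fit all groups share 1 estimate of the spread. In a fit of only the groups compared Lcp2 alone passed, as it did under Tukey HSD with Benjamini-Hochberg adjustment, and with counts scaled to the total 3 members passed (Cd5, Zap70 and Lcp2). With each mouse centred on its median gene Cd3d (adjusted p = 0.0517) and Cd247 (adjusted p = 0.0547) no longer passed. The sign of each of the 9 negative differences was kept in all 12 fits that left out a mouse. B cell markers moved with this comparison, 1 of 9 past the threshold (Blnk, which fell by 0.46, adjusted p = 0.0429) and a median difference of -1.59, with a log2 summed level of 9.79 to 12.6 in SPF PAT against 10.4 to 12.8 in SPF control mice. So did 2 of 7 natural killer cell markers, Klrd1, which fell by 0.77 (adjusted p = 0.0440), and Klrc1, which fell by 0.41 (adjusted p = 0.0310), with a summed level of 7.48 to 8.14 against 8.19 to 8.37. Of 5 granulocyte markers 2 were lower, S100a8, which fell by 2.04, and S100a9, which fell by 1.67 (adjusted p = 0.0190 for each), with a summed level of 5.07 to 5.82 against 6.22 to 7.03. The part of natural killer cells and granulocytes in the result was not tested. With the B cell marker mean as a covariate 7 members passed, with Lck in place of Cd6, and the difference of Cd2 was -0.07 (adjusted p = 0.896).

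**Figure D3:**
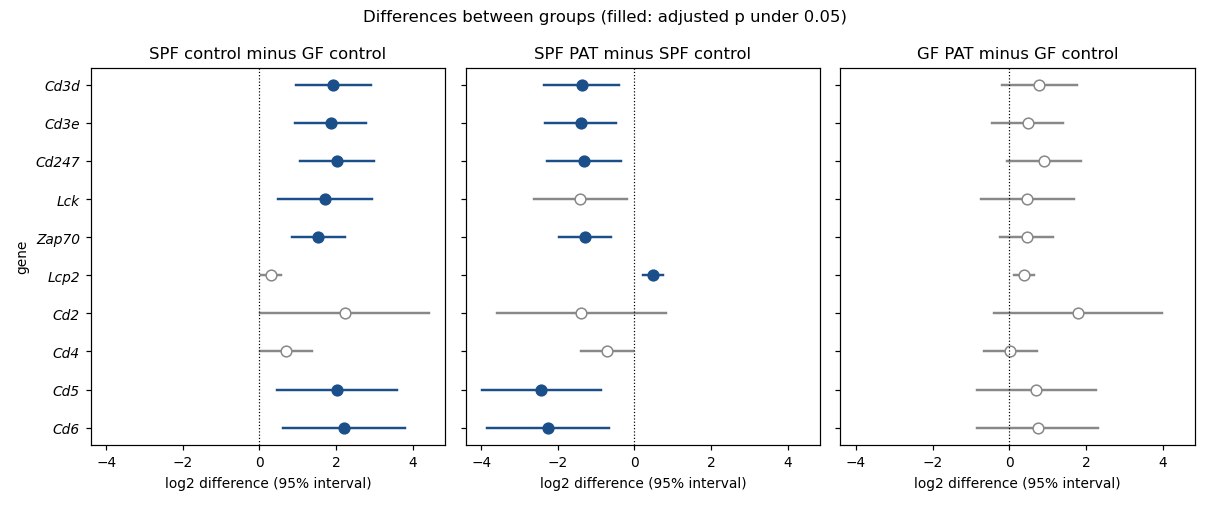
Log2 difference of each gene in 3 comparisons (x axis, with 95% intervals), filled where the adjusted p was under 0.05. The 10 genes lie right of 0 in SPF control minus GF control, 9 lie left of 0 in SPF PAT minus SPF control, and none is filled in GF PAT minus GF control.

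Lcp2 was the member that rose in SPF PAT mice, by 0.48 ± 0.12 (adjusted p = 0.0169), or 1.39-fold. Its probe counts before normalization were 35, 34 and 35 in SPF control mice 2, 7 and 8, and 42, 32 and 35 in SPF PAT mice 21, 26 and 27. These counts overlapped, and the difference arose when they were divided by the size factors, which were 1.19 to 1.25 in SPF control and 0.833 to 1.06 in SPF PAT mice. The call was lost with an intensity trend in the variance (adjusted p = 0.0662). The rise was kept under the other scalings, at 0.51 with counts scaled to the total (adjusted p = 0.0117), 0.83 with each mouse centred on its median gene (adjusted p = 0.0357) and 0.89 with quantile normalization (adjusted p = 0.0324). The difference of Lcp2 between SPF control and GF control mice changed sign with the scaling, to -0.15 under median centring and -0.36 under quantile normalization, and passed under neither. Those scalings moved the median of all genes in that comparison from 0.08 to -0.36 and -0.14. The 7 members called in it were called under median centring as well, and 6 of them, all but Cd5, under quantile normalization.

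**Figure D4:**
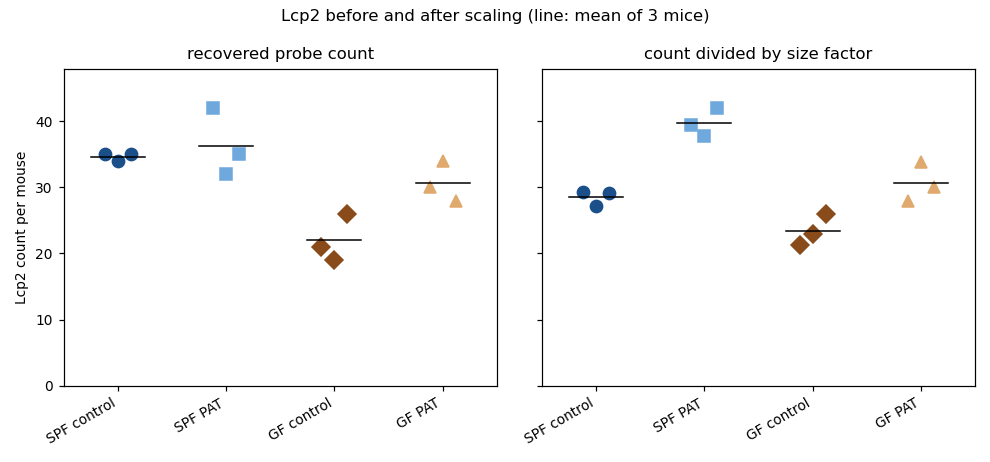
Lcp2 in each mouse as the recovered probe count (left) and after division by the size factor of the mouse (right), with the mean of 3 mice as a line. The counts of SPF control (34 to 35) and SPF PAT mice (32 to 42) overlap before scaling and separate after it.

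In GF mice, which have no microbiota, the comparison bears on tylosin itself. No member passed in GF PAT against GF control mice, and neither did any of the 556 genes (0% called). At an unadjusted p under 0.05 there was 1 member, Lcp2, and 28 genes in all, and no member passed under Tukey HSD or voom. The differences of all 10 genes were above 0, from 0.03 ± 0.31 for Cd4 to 1.79 ± 0.99 for Cd2, with a median of 0.59, and the intervals were wide, for Cd247 from -0.06 to 1.88 and for Cd3e from -0.45 to 1.41. The B cell marker list had a median difference of 2.08 in this comparison, with no marker of 9 past the threshold, and its log2 summed level was 11.1 to 12.6 in GF PAT against 9.85 to 11.9 in GF control mice. With the B cell marker mean as a covariate the median difference of the members was 0.09.

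The difference between the PAT effect in SPF and in GF mice was tested directly. It passed for 3 members, all with a negative value, against 7.19% of all genes called lower. A negative value means that the change with PAT was lower in SPF than in GF mice. Part of it came from the GF mice. There PAT minus control was 0.91 for Cd247, 0.78 for Cd3d and 0.45 for Zap70, none past the threshold. The difference between the effects was -2.23 ± 0.61 for Cd247 (adjusted p = 0.0360), -2.16 ± 0.62 for Cd3d (adjusted p = 0.0417) and -1.73 ± 0.43 for Zap70 (adjusted p = 0.0276). For Cd3e it was -1.88 ± 0.59 (adjusted p = 0.0541) and for Lcp2 0.09 ± 0.16 (adjusted p = 0.700). No member passed with the B cell marker mean as a covariate (Cd247 -1.20, adjusted p = 0.0734), and none without SPF control mouse 2 or 7, SPF PAT mouse 26 or 27, GF control mouse 38 or GF PAT mouse 41 or 42. Without GF control mouse 39 there was 1, without SPF control mouse 8 there were 5, without GF control mouse 37 there were 7, and without SPF PAT mouse 21 there were 9.

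SPF PAT mice were then set beside the germ-free groups. Against GF control mice 1 member passed, Lcp2, with a difference of 0.77 ± 0.12 (adjusted p = 0.0196), against 2.16% of all genes called. No call was made for Lcp2 without SPF PAT mouse 26 or 27 or GF control mouse 38. Against GF PAT mice no member passed, against 1.44% of all genes, with 1 member, Lcp2, at an unadjusted p under 0.05 and none under Tukey HSD or voom. The intervals for the chains did not settle the order of these groups. Cd3e was 0.46 above GF control mice (-0.47 to 1.39) and -0.02 from GF PAT mice (-0.95 to 0.91). In the F-test over the 4 groups 5 members passed (Cd3d, Cd3e, Cd247, Zap70 and Lcp2), against 33.1% of all genes. That count was 1 without SPF control mouse 2 or 7, 2 without GF control mouse 38 or 39 and 8 without SPF PAT mouse 21.

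To see whether the members changed in proportion to the receptor, the mean of the 3 chains in the same mouse was subtracted from every gene. On this scale Cd4 was 1.24 ± 0.36 lower in SPF control than in GF control mice (95% interval -2.01 to -0.47, adjusted p = 0.00736). It was -0.16, -0.09 and 0.15 in SPF control mice and 0.99, 1.10 and 1.54 in GF control mice, with the treated groups between them at 0.36 to 0.97 in SPF PAT and 0.38 to 0.60 in GF PAT mice. Cd4 thus differed less between the control groups than the chains did, and this call was made in all 12 fits that left out a mouse. Lcp2 was the other of the 7 members past the threshold, at -1.65 ± 0.50 (adjusted p = 0.00994), and was not called without GF control mouse 39. Both shares stand against 73.8% of all genes other than the chains called in either direction on this scale. Lck (-0.24, interval -1.02 to 0.54), Zap70 (-0.40, -1.20 to 0.40), Cd2 (0.29, -0.99 to 1.57), Cd5 (0.09, -0.88 to 1.05) and Cd6 (0.27, -0.75 to 1.28) did not pass, which leaves differences from the chains of up to 1 or more on the log2 scale possible. In SPF PAT against SPF control mice 1 of 7 passed, Lcp2 at 1.84 ± 0.50 (adjusted p = 0.0202), against 49.0% of all genes. It was not called without SPF control mouse 2 or 7 or SPF PAT mouse 26 or 27, and without SPF PAT mouse 21 there were 3 such members. Cd4 was 0.66 ± 0.36 relative to the chains there (adjusted p = 0.128) and Cd5 -1.06 ± 0.45 (adjusted p = 0.0613).

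CD4 is also carried by lymphoid tissue inducer cells and by some myeloid cells. Of 8 markers of group 3 innate lymphoid and inducer cells, all measured, 1 was higher and 3 were lower in SPF control than in GF control mice. The higher one was the cytokine gene Il22 (adjusted p = 0.00186), with probe counts of 9 to 13 in SPF control and 0 to 3 in GF control mice, and among the lower was Kit, by -0.80 (adjusted p = 0.00289). The list had a log2 summed level of 11.1 to 11.2 against 11.6 to 11.7. Of 8 macrophage and dendritic cell markers measured among 10 listed, none was higher and 2 were lower, with a summed level of 10.5 to 10.8 against 10.3 to 10.7. The part of these cells in the Cd4 values was not tested.

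**Figure D5:**
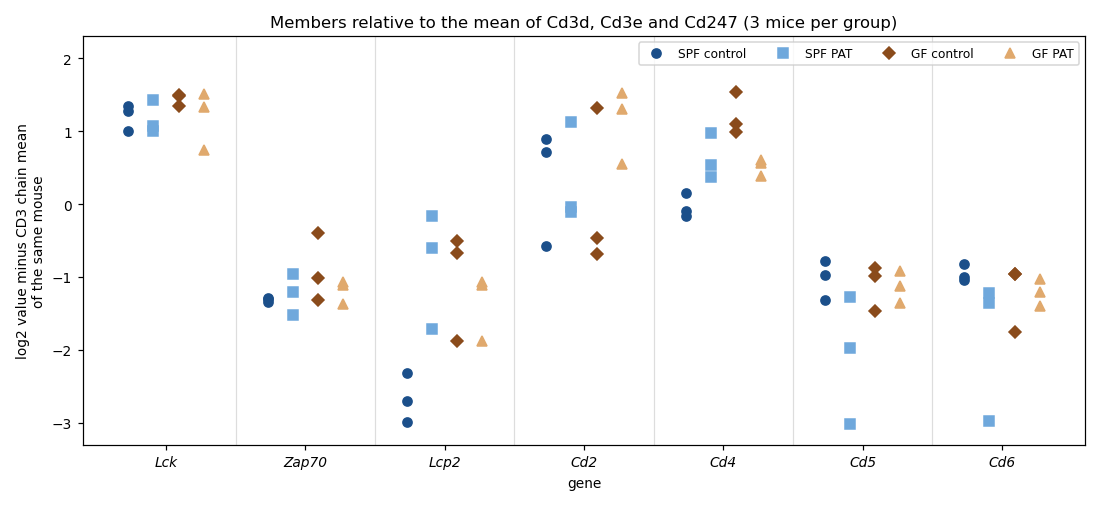
Log2 value of 7 members minus the mean log2 value of Cd3d, Cd3e and Cd247 in the same mouse (y axis), 3 mice per group. For Cd4 the SPF control mice (-0.16 to 0.15) lie below the GF control mice (0.99 to 1.54), and for Lck and Zap70 the groups overlap.

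Of the T cell signalling genes outside the members, 18 of 29 listed were measured. In SPF control against GF control mice 3 rose. They were the costimulator Icos by 2.14 (adjusted p = 0.0174), the CD8 coreceptor chain Cd8a by 2.12 (adjusted p = 0.00116) and the Lck-related kinase Fyn by 0.68 (adjusted p = 0.0187). The 7 that fell act downstream and in many cell types, among them Chuk, a kinase of the NF-κB pathway, by 0.84 (adjusted p = 0.00363), and the transcription factor Nfatc3 by 0.66 (adjusted p = 0.00355). The other 8 did not pass, among them the costimulator Cd28 (0.26 ± 0.59, adjusted p = 0.739) and the phosphatase gene Ptprc (1.12 ± 0.49, adjusted p = 0.0902). Cd8b1, the other CD8 chain, did not pass either (1.26 ± 0.53, adjusted p = 0.0798). In SPF PAT against SPF control mice 4 rose, 1 fell and 13 did not pass. The gene that fell was Cd8a, by 1.79 ± 0.34 (adjusted p = 0.00545), with levels of 7.87, 7.87 and 8.01 in SPF control mice and 5.55, 6.05 and 6.78 in SPF PAT mice, which did not overlap. The difference of Cd8b1 (-1.22 ± 0.53, adjusted p = 0.111) did not pass. In GF PAT against GF control mice none of the 18 passed.

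Genes outside the members were ranked by how closely they tracked the members' mean over the 12 mice, as the root mean square difference after centring. The nearest were Il2rg (0.177), the common chain of several cytokine receptors, Itgal (0.205), the integrin chain of LFA-1, Arhgdib (0.236), Ptprc (0.247), which encodes CD45, and Il27ra (0.254). The median of the other genes was 0.911, and the members' mean itself varied by 0.787 about its average. The 5 nearest genes were picked for their likeness to the members in these same 12 mice. Their group differences follow in part from that choice and are no separate evidence. In SPF control against GF control mice, 19.4% of all genes were called higher. There Itgal rose by 1.91 ± 0.44 (adjusted p = 0.00677) and Il2rg by 1.48 ± 0.48 (adjusted p = 0.0322). The remaining 3 differed by 1.12 to 1.48 and did not pass. In SPF PAT against SPF control mice none of the 5 passed, with differences from -1.27 for Il27ra to -0.997 for Il2rg.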

How the data were processed

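The authors normalized the nCounter counts with DESeq2 and took log2, and the deposited values are these log2 normalized counts. Aligners and genome builds do not apply, and corrections by control probes are not given in the sources used here. The 28 reference and control entries held no value, so a background level could not be set. Dividing out 1 size factor per mouse (0.830 to 1.25) gave whole counts within 0.01 for 100% of 6609 values, and a count of 0 was written as 0. Groups came from the sample labels, with mouse numbers from the titles.

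Group differences were fitted in limma 3.58.1 (R 4.3.3) on all 556 genes without a filter, with 1 mean per group, all 12 mice and Benjamini-Hochberg adjustment over all genes per comparison at 0.05. The script was tested on simulated data. Alternatives were the methods' analysis of variance with Tukey HSD, variance models, scalings, voom, a minimum mean count of 20, a minimum log2 difference of 1, a pseudocount of 1, the groups compared alone, and each mouse left out.

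The members, gene lists and tests were chosen with earlier results of these data known. Beyond members, genes were named as the 5 closest in profile, the 3 largest rises and falls past the threshold in the signalling list plus Cd8a, Cd28, Ptprc and Icos, and up to 2 per cell type list. A gene that this rule names in the signalling list is not reported here. Pigr, Itln1, Klrc1 and Cd8b1 were named outside this rule, after their values were seen. Of the lists not described above, granulocyte markers (5 of 5 measured) had 3 higher in SPF control than GF control mice, among them S100a9 by 2.36 and S100a8 by 1.70, and endothelial markers (3 of 5 measured) had 1 lower. Macrophage genes named by the rule were Cd163 and Clec4a4, both lower in that comparison. The labels do not say that the mice of a group came from separate litters, so p-values measure only the spread between these mice.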

Additional observations from a re-analysis of the deposited data

Results flagged for a closer look

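The change with PAT differed between SPF and GF mice, by a test of the difference itself, for Cd247 (-2.23, adjusted p = 0.0360), Cd3d (-2.16, adjusted p = 0.0417) and Zap70 (-1.73, adjusted p = 0.0276). All 3 were lower in SPF PAT than in SPF control mice. In GF mice their differences were above 0 (0.91, 0.78 and 0.45) and did not pass the threshold, yet they are part of the values tested. Each of these calls ended without SPF control mouse 2 or 7, SPF PAT mouse 26 or 27, GF control mouse 38 or GF PAT mouse 41 or 42, and with the B cell marker mean as a covariate (Cd247 -1.20, Cd3d -1.05 and Zap70 -1.10).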

How the results depend on the processing

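Leaving out 1 mouse at a time gave 4 to 9 members past the threshold in SPF control against GF control, 0 to 9 in SPF PAT against SPF control, 0 to 9 for the difference between PAT effects, 0 to 1 in SPF PAT against GF control, 1 to 8 in the F-test, and 1 to 2 and 0 to 3 relative to the chains in the first and second comparison. Under Tukey HSD with Benjamini-Hochberg and with Benjamini-Yekutieli adjustment 2 and 0 members passed in the first comparison and 1 and 0 in the second, and the analysis of variance gave 2 and 1. In the second comparison median centring gave 5, without Cd3d and Cd247, and an intensity trend 6, without Lcp2. Only the groups compared gave 1 in the second comparison, and counts scaled to the total gave 3 there and 3 in the F-test. For the difference between PAT effects an intensity trend gave 5, a minimum mean count 6, voom 6 and the B cell marker covariate 0. The call of Lcp2 in SPF PAT against GF control was lost (0 members) under Tukey HSD with Benjamini-Yekutieli adjustment, an intensity trend, only the groups compared, median centring, quantile normalization, voom and a minimum log2 difference. The median difference in the first comparison was 1.27 with the covariate. No called difference was reversed, and the causes of these changes were not tested, beyond the fewer mice in fits that left 1 out. Tukey HSD and a fit of only the groups compared give no value for the difference between PAT effects. Median centring turned the split of all genes called higher and lower from 108 and 126 to 57 and 169 in the first comparison and from 78 and 68 to 76 and 30 in the second. In the second comparison counts scaled to the total gave 135 and 57, and quantile normalization 90 and 49. No paired analysis was possible because each mouse has a number of its own. With 3 mice per group and counts down to 5, differences in Cd5, Cd6 and Cd2 are the least precise by SE. For Lcp2, with counts of 19 to 42, the small SE does not reflect the counting error.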
